A study of Homo sapiens with 8 samples.

Results

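The genes described here are 31 regulators and machines of the cell cycle and of DNA replication, named in a list of cyclins, cyclin-dependent kinases (CDKs), CDK inhibitors, E2F factors, replicative helicase subunits and mitotic regulators. They were followed through 4 lists of NKRF peaks from chromatin immunoprecipitation followed by sequencing (ChIP-seq), against the 20006 other protein-coding genes of the 20037 that RefSeq places on chromosomes 1 to 22, X and Y. A gene was counted as having a peak when a peak summit, the highest point of a called peak, lay in the gene body or within 10 kb of either end. All 31 symbols matched a gene.

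NKRF, the NF-kB repressing factor, was immunoprecipitated from MDA-MB-231-P3 cells, a triple-negative breast cancer subline described as highly metastatic. Transfection was with a control siRNA (control, 2 NKRF libraries) or with duplexes that target Uc003xsl.1, a long non-coding RNA named in the series title as a decoy for NKRF (si-Uc003xsl.1, 2 NKRF libraries). Both groups are the same cell line, no label ties a replicate to its own culture, and these files hold no measurement of Uc003xsl.1 itself. The question asked of the genes is whether NKRF peaks lay at them, and whether the lists of the 2 groups differed there.

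The cell cycle is driven by cyclins that activate CDKs and is held back by CDK inhibitors. D-type cyclins with CDK4 and CDK6, then E-type cyclins with CDK2, release E2F factors that switch on genes for DNA synthesis. The MCM proteins form the helicase that opens DNA at origins, and cyclin B with CDK1 drives mitosis, which ends once CDC20 activates the anaphase-promoting complex. NKRF is known as a DNA-binding repressor of NF-kB target genes, and cyclin D1 is among the genes that NF-kB is known to regulate.

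Filtered NKRF tags numbered 19335431 in control replicate 1, 8250475 in control replicate 2, 18890698 in si-Uc003xsl.1 replicate 1 and 11366267 in si-Uc003xsl.1 replicate 2. The lists held 7444, 902, 7577 and 4463 peaks in the same order. Control replicate 2 was called with another version of the peak caller, another threshold and another tag length than the other 3 lists, so its peak numbers cannot be set directly against theirs. The caller's false discovery rate stood at 100% throughout the list of control replicate 1, and its median was 30.75% and 10.96% in si-Uc003xsl.1 replicates 1 and 2.

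After si-Uc003xsl.1, 10 of the 31 cell cycle genes had an NKRF peak in at least 1 library: the cyclin gene CCND1, the kinase gene CDK2, the inhibitor genes CDKN1A and CDKN1B, the helicase genes MCM4, MCM5 and MCM7, and the mitotic genes CCNB1, CDC20 and AURKA. In controls it was PLK1 alone (1 of 31), and 20 genes had no peak in any library. Of the other protein-coding genes, 34.0% had a peak in at least 1 si-Uc003xsl.1 library, 13.4% in at least 1 control and 40.7% in any of the 4. By library, the counts were 1 of 31 (3.23%) in control replicate 1 and 0 of 31 in control replicate 2, then 7 of 31 (22.6%) and 4 of 31 (12.9%) in si-Uc003xsl.1 replicates 1 and 2. Among all other protein-coding genes the shares were 11.8%, 2.58%, 23.0% and 17.1%. The cell cycle genes were therefore close to the background in si-Uc003xsl.1 replicate 1 and below it in the other 3 libraries. As 1 of 31 genes is 3.23%, the gap in control replicate 2 is smaller than 1 gene. That in si-Uc003xsl.1 replicate 2 also rests on few genes, and no gap was tested.

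The mean number of cell cycle genes with a peak in controls was 0.5 ± 0.707 (SD, n = 2), and with si-Uc003xsl.1 it was 5.5 ± 2.12 (SD, n = 2). The control mean and SD join 2 lists called with different settings. Without control replicate 2 the difference between groups in this number was 4.5 genes, against 5 with it. The libraries of the groups did not overlap in this number. Nor did they overlap in the share of other protein-coding genes, 11.8% and 2.58% in controls against 23.0% and 17.1% with si-Uc003xsl.1. With every list reduced to its 902 strongest peaks, no cell cycle gene kept a peak in any library, so the difference of 5 genes became 0. Among the other protein-coding genes the mean share in controls was 7.19% ± 6.51 (SD, n = 2), and with si-Uc003xsl.1 it was 20.1% ± 4.17 (SD, n = 2), a difference of 12.9 percentage points (exact permutation of the libraries, with 3 possible splits, two-sided p = 0.333, below which this design cannot go). Without control replicate 2 that difference was 8.29 points, and with equal lists of 902 peaks it was 1.91 points. That p was the same with equal lists, so it does not measure the spread over these 4 libraries. Whether part of that spread is technical was not tested. The 31 genes had a median length of 16.5 kb against 24.1 kb for the other genes. Within the 31 it was 11.1 kb for the 11 genes with a peak in any library and 22.4 kb for the 20 without. The 104 further cell cycle genes described below had a median of 37.6 kb. A shorter gene offers less sequence in which a summit can fall, but the part of length in the shares was not tested.

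**Figure D1:**
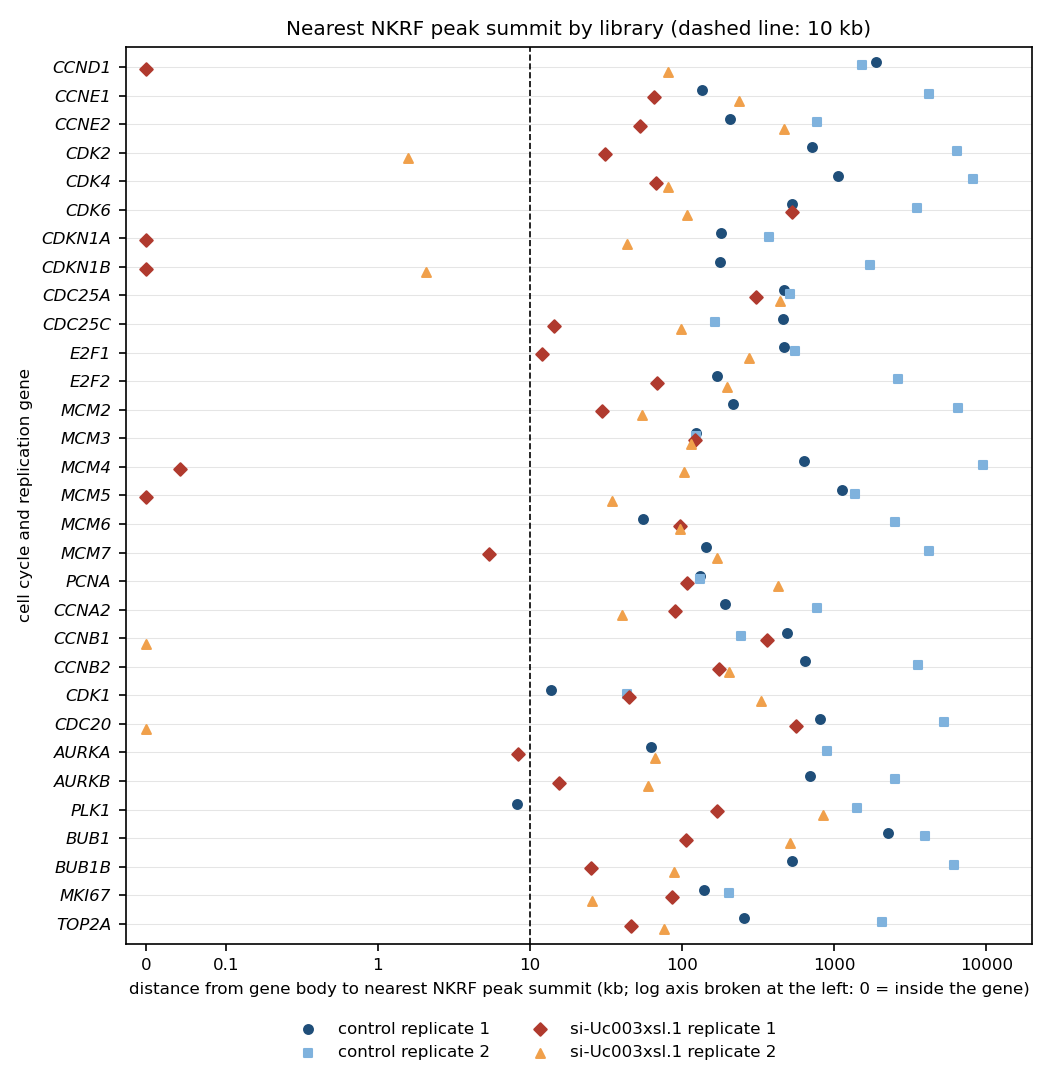
Distance in kb (log axis, broken at the left, where 0 marks a summit inside the gene) from each of the 31 genes to the nearest NKRF peak summit, with 1 point per library. Only PLK1 has a control point left of the dashed 10 kb line, while 10 genes have a si-Uc003xsl.1 point there, and CDKN1B has both.

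Among the genes with a peak and a RefSeq promoter window here, CDC20 and CDKN1B had the summits nearest to the start site. No start site was used for CCND1, CDK2, MCM4, MCM5 and AURKA, so the summit 50 bp from an end of MCM4 was not placed against one. The windows of CDC20 and CDKN1B are shown because the called regions begin inside or just beyond them. They stand beside that of RBL2, a gene outside the 31 that had overlapping peaks in both si-Uc003xsl.1 libraries. The windows run 5′ to 3′, with the 250 bases before the start site and the 50 bases from it onward, are taken from RefSeq on GRCh38.p14, and lie on the plus strand at chr1:43358731-43359030 (CDC20), chr12:12717118-12717417 (CDKN1B) and chr16:53434221-53434520 (RBL2). Capitals mark the CCAAT box and the cell cycle homology region described below.
CDC20: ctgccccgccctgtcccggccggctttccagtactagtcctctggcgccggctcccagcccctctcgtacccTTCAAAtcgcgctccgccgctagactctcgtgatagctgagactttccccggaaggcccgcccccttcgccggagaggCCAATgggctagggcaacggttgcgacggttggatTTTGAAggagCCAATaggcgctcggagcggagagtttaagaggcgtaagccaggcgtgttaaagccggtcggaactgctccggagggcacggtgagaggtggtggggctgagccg
CDKN1B: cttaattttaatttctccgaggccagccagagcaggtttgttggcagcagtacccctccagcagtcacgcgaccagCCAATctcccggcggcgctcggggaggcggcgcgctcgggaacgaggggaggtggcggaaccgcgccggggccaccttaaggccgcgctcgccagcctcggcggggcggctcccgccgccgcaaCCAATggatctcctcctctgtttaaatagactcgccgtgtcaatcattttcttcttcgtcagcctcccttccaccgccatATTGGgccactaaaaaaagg
RBL2: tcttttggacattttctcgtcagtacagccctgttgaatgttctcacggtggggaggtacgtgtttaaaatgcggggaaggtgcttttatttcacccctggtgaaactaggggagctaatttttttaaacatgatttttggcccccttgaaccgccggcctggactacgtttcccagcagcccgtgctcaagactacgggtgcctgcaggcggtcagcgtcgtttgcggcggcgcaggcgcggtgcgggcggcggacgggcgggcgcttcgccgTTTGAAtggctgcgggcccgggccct

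In the CDC20 window the peak of si-Uc003xsl.1 replicate 2 covers the last 61 bases, from 11 bases before the start site onward. At CDKN1B the peak of si-Uc003xsl.1 replicate 1 begins 82 bases after the start site, 33 bp beyond the last base of the window. At RBL2 the last 109 bases lie in the peak of si-Uc003xsl.1 replicate 1 and the last 124 bases in that of replicate 2.

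Promoter windows were searched for short motifs that many cell cycle genes are known for, and for the site of NF-kB. The letters searched on both strands were CCAAT (the CCAAT box), TTTGAA (the cell cycle homology region), TTCCCGC and TTGGCGC (forms of the E2F core) and the kappaB consensus by name, and matches may overlap. Windows were found for 25 of the 31 genes and for 15818 others; CCND1, CDK2, CCNE2, MCM4, MCM5 and AURKA had none. CCAAT occurred in 17 of 25 (68%) against 36.3% of other promoters, TTTGAA in 7 of 25 (28%) against 12.1%, TTCCCGC in 4 (16%) against 8.59%, and TTGGCGC in 6 (24%) against 4.16%. The kappaB consensus occurred in 3 of 25 (12%), those of MCM3, MCM7 and PCNA, against 12.3% of other promoters. These matches describe the letters of the windows and were given no test.

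CDC20 carries 2 CCAAT boxes, which begin 100 and 55 bases before the start site, and a TTTGAA at 65 bases before it. A second TTTGAA of CDC20, on the opposite strand, begins 178 bases before the start. None of these lies in the part of the window that the peak covers. CDKN1B carries 3 CCAAT boxes, of which 1 lies on the opposite strand after the start site, and RBL2 a TTTGAA that begins 24 bases after its start, inside the peaks of both libraries. The windows of the 25 genes had a median GC content of 64.7% against 62.7% for other genes.

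Of the G1 cyclins and kinases, CCND1 and CDK2 had a peak and CCNE1, CCNE2, CDK4 and CDK6 had none. CCND1 encodes cyclin D1, the partner of CDK4 and CDK6. Its peak in si-Uc003xsl.1 replicate 1 covered 1608 bp, from 69641661 to 69643268 on chromosome 11, and contained 107 tags (exact 95% Poisson interval 87.7 to 129, counting error only). The summit lay inside the gene, 1798 bp from its nearer end, and no other protein-coding gene was within 10 kb.

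This CCND1 peak was the widest and richest of the 12. Counting the peak itself, 10 of the 7577 peaks of that list were as wide or wider, and 13 held as many tags or more. Its fold enrichment over input was 4.92, against a median of 10.18 in the list, and its -log10 p of 4.63 put it at rank 2870. The nearest summit to CCND1 was 1890 kb away in control replicate 1, 1520 kb in control replicate 2 and 81.4 kb in si-Uc003xsl.1 replicate 2. The peak was thus called in 1 library of the pair. Both si-Uc003xsl.1 libraries had a summit nearer than either control, an order found for 49.3% of the other protein-coding genes.

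CDK2, the kinase of the G1 to S transition, had a peak in si-Uc003xsl.1 replicate 2 at 55974076 to 55974532 on chromosome 12, with 18 tags over 457 bp. The summit lay 1580 bp outside CDK2 and inside RAB5B, 420 bp from an end of that gene, so it was closer to RAB5B than to CDK2. Distances from CDK2 to the nearest summit were 717 kb and 6450 kb in control replicates 1 and 2 and 31 kb in si-Uc003xsl.1 replicate 1. Over the 4 libraries the nearest summit lay at 67.8 kb from CDK4 and at 108 kb from CDK6.

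Both genes of CDK inhibitors among the 31 had peaks after si-Uc003xsl.1 and neither had one in controls. Of the other protein-coding genes, 34.0% and 13.4% had a peak in at least 1 library of these groups. The 104 further genes described below include the inhibitor genes CDKN1C, CDKN2A, CDKN2B, CDKN2C and CDKN2D. Of these only CDKN1C had a peak, of 6 tags in si-Uc003xsl.1 replicate 1. CDKN1B encodes p27, which restrains CDK2 complexes, and was the only cell cycle gene with a peak in both si-Uc003xsl.1 libraries. In replicate 1 the peak lay at 12717450 to 12717753 on chromosome 12 with 18 tags (exact Poisson interval 10.7 to 28.4), and its summit was 257 bp downstream of the start site. In replicate 2 it lay at 12724288 to 12724618 with 14 tags (7.65 to 23.5), with the summit 2079 bp outside the gene.

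The CDKN1B summits were 6823 bp apart and the peaks did not overlap, so no position at this gene was called in both libraries. The summit of replicate 2 was 1469 bp from APOLD1, the neighbouring gene, and thus nearer to it than to CDKN1B. In controls the nearest summits to CDKN1B were at 176 kb and 1730 kb. Among the other protein-coding genes 1240, or 6.20%, had a peak within 10 kb in both si-Uc003xsl.1 libraries, against 1 of 31 cell cycle genes (3.23%).

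CDKN1A encodes p21, a CDK inhibitor induced by p53. Its peak in si-Uc003xsl.1 replicate 1 spanned 36680107 to 36680816 on chromosome 6, 710 bp with 45 tags (exact Poisson interval 32.8 to 60.2), and the summit lay inside the gene, 1888 bp downstream of the annotated start site used here. By tags it was among the richest 327 of 7577 peaks, while its -log10 p of 4.14 put it at rank 5713. The nearest summits were at 181 kb and 375 kb in control replicates 1 and 2 and at 43.4 kb in si-Uc003xsl.1 replicate 2.

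None of the genes of CDC25 phosphatases (CDC25A, CDC25C), which activate CDKs, or of E2F factors (E2F1, E2F2) had a peak. E2F1, which drives genes of DNA synthesis, missed the 10 kb window by little, with a summit at 12.0 kb in si-Uc003xsl.1 replicate 1. CDC25C had one at 14.4 kb in the same library. In the other libraries the nearest summit lay at 275 kb (E2F1) and 98.6 kb (CDC25C).

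Of the replicative helicase and the sliding clamp, 3 of 7 genes had a peak, all in si-Uc003xsl.1 replicate 1. In that library 23.0% of the other protein-coding genes had one. MCM4, MCM5 and MCM7 encode subunits of the MCM2-7 helicase; MCM2, MCM3, MCM6 and PCNA, the clamp that holds polymerases on DNA, had no peak. At MCM4 the peak spanned 47960710 to 47961081 on chromosome 8 with 20 tags (exact Poisson interval 12.2 to 30.9), and its summit lay 50 bp outside the gene and 755 bp from PRKDC, the gene of a DNA repair kinase. In the other libraries the nearest summit to MCM4 was at 631 kb, 9560 kb and 103 kb in the order of control replicates 1 and 2 and si-Uc003xsl.1 replicate 2.

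The peaks at MCM5 and MCM7 were smaller. At MCM5 the peak held 9 tags over 166 bp at 35421192 to 35421357 on chromosome 22, 21119 bp inside the gene. The peak counted for MCM7, with 11 tags at 100106624 to 100106827 on chromosome 7, lay 5338 bp outside that gene, inside AP4M1 and 335 bp from an end of TAF6, which encodes a subunit of a general transcription factor. It is thus a peak of a neighbouring gene's end that the 10 kb window also assigns to MCM7. MCM3 had its nearest summit between 115 kb and 124 kb away in every library, and whether these summits share a place was not examined.

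**Figure D2:**
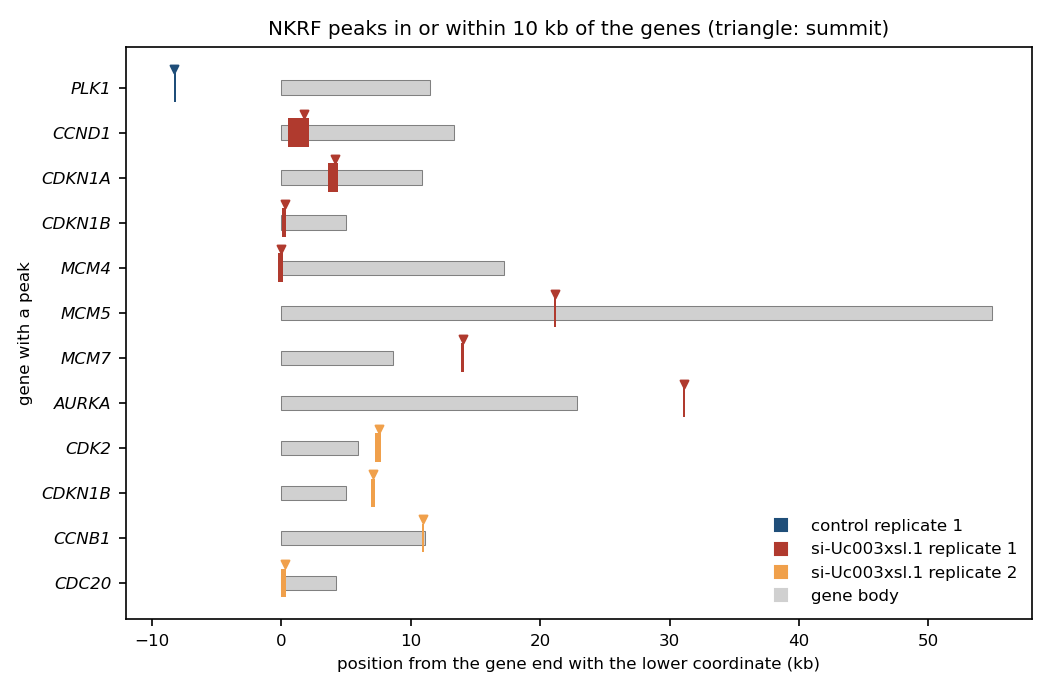
Positions of the 12 peaks in kb from the gene end with the lower coordinate; grey bars are gene bodies, coloured blocks are peaks by library and triangles mark summits. Peaks sit at the edge of MCM4 and near an end of CDKN1B, CDC20 and CCNB1, and outside the gene for PLK1, MCM7, AURKA, CDK2 and the second CDKN1B peak.

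Of the cyclins and the kinase of S phase and mitosis, CCNB1 had a peak and CCNA2, CCNB2 and CDK1 had none. CCNB1 encodes cyclin B1, the activator of CDK1. Its peak in si-Uc003xsl.1 replicate 2, at 69177999 to 69178183 on chromosome 5, held 6 tags, the smallest count in that list, with an exact Poisson interval of 2.20 to 13.1. The summit lay 10921 bp downstream of the start site and 174 bp inside the opposite end of the gene. In the other libraries the nearest summit to CCNB1 was at 488 kb, 243 kb and 363 kb.

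CDK1, the kinase that drives mitosis, was the only one of the 31 genes whose nearest summit was closer in both controls than in both si-Uc003xsl.1 libraries. The distances were 13.7 kb and 43.3 kb in control replicates 1 and 2 against 45.1 kb and 332 kb after si-Uc003xsl.1. Such an order was found for 2.43% of the other protein-coding genes. The gap between 43.3 kb and 45.1 kb is smaller than the spread within either group.

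Of the 6 genes of mitotic kinases and the spindle checkpoint, CDC20 and AURKA had a peak after si-Uc003xsl.1 and PLK1 in a control, while AURKB, BUB1 and BUB1B had none. CDC20 encodes the activator of the anaphase-promoting complex. Its peak in si-Uc003xsl.1 replicate 2 spanned 43358970 to 43359344 on chromosome 1 with 19 tags (exact Poisson interval 11.4 to 29.7), and the summit lay 297 bp downstream of the start site. The -log10 p was 4.02, near the caller's threshold and at rank 4399 of 4463. In the other libraries the nearest summit to CDC20 was at 811 kb, 5240 kb and 558 kb.

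AURKA, which encodes the centrosomal kinase Aurora A, was counted through a peak of 7 tags in si-Uc003xsl.1 replicate 1, at 56400464 to 56400602 on chromosome 20. The summit lay 8323 bp outside AURKA and inside CSTF1, a gene for an RNA cleavage factor. PLK1, the gene of the mitotic Polo-like kinase, had the one control peak, at 23670598 to 23670728 on chromosome 16 in control replicate 1. It held 6 tags, the smallest count in that list, at a false discovery rate of 100%, and its summit was 8249 bp upstream of the PLK1 start site and inside DCTN5. After si-Uc003xsl.1 the nearest summit to PLK1 was at 169 kb and 843 kb.

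The proliferation antigen gene MKI67 and the topoisomerase gene TOP2A had no peak in any library. Their nearest summits were at 25.5 kb (MKI67) and 46.4 kb (TOP2A), in si-Uc003xsl.1 replicates 2 and 1. Both genes had a nearer summit in each si-Uc003xsl.1 library than in either control, as did 49.3% of the other protein-coding genes.

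Peaks at the cell cycle genes were not strong peaks of their lists by p-value. Of the 11 peaks after si-Uc003xsl.1, 5 lay above the median -log10 p of their list and 6 at or below it. The highest, at CDKN1B in replicate 2, had a -log10 p of 5.39 and rank 954. By width and tags they stood somewhat higher: 8 of the 11 exceeded the median length of their list and 9 its median tag count, with 7 to 107 tags in replicate 1 and 6 to 19 in replicate 2. Peaks near other protein-coding genes also had medians above those of their whole lists. In replicates 1 and 2 their median was 9 tags in each, against 7 and 8 in the lists. Their median length was 192 bp and 223 bp, against 176 bp and 203 bp. Peaks at the cell cycle genes had medians of 18 and 16 tags and of 304 bp and 353 bp, and no difference was tested. For these 11 peaks the caller's false discovery rate was 30.8% to 31.6% in replicate 1 and 10.64% to 12.8% in replicate 2. When every list was reduced to its 902 strongest peaks, no cell cycle gene kept a peak in any library, and of the other genes 1.99%, 2.58%, 4.36% and 4.03% did.

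**Figure D3:**
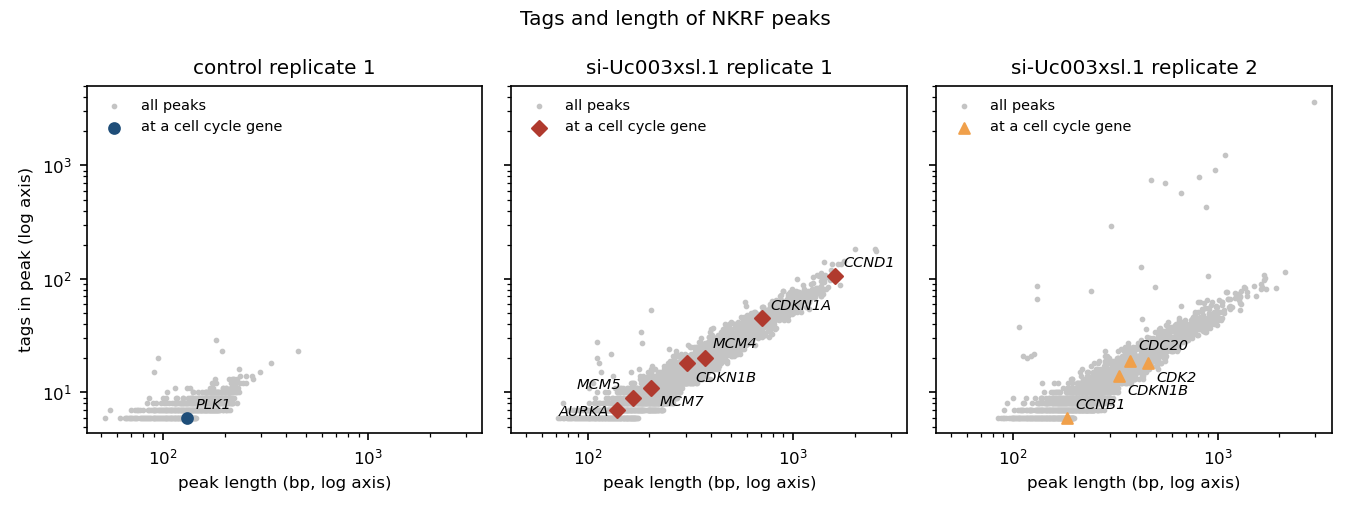
Tags against length in bp (both log axes) for all peaks (grey) and for peaks at the cell cycle genes (coloured, named) in the 3 lists that report tags. CCND1 sits at the wide end of si-Uc003xsl.1 replicate 1 with 107 tags and 1608 bp, while PLK1 and CCNB1 sit at the smallest tag count of their lists.

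None of the 12 peaks at the cell cycle genes overlapped a peak of another library by 1 bp or more. Overlap was rare in the whole lists too: 0.215% and 0.333% of all peaks in control replicates 1 and 2, and 2.26% and 3.61% in si-Uc003xsl.1 replicates 1 and 2, overlapped a peak of any other list. Nothing particular to the cell cycle genes is read from the 0 of 12. Of the 12 peaks, 7 were nearest to an end of the listed gene and 5 to an end of another protein-coding gene. The 5 were those of PLK1, MCM7, AURKA and CDK2 and that of CDKN1B in replicate 2. The same split was not counted for peaks near other genes, so nothing particular to these genes is read from it. Within 1 kb of either end lay a summit at 2 of 31 genes in each si-Uc003xsl.1 library, CDKN1B and MCM4 in replicate 1 and CCNB1 and CDC20 in replicate 2. These shares of 6.45% compare with 6.54% and 5.28% of other genes. In controls it was 0 of 31 in both, against 0.530% and 0.120%.

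Summits lay closer to these genes after si-Uc003xsl.1 than in controls, as they did for genes in general. The median distance over the 31 genes was 255 kb and 1730 kb in control replicates 1 and 2 and 52.6 kb and 97.3 kb after si-Uc003xsl.1. Over the other genes it was 280 kb, 1320 kb, 73.4 kb and 132 kb. For 21 of the 31 genes (67.7%) both si-Uc003xsl.1 distances were shorter than both control distances, against 49.3% of other genes. Control replicate 2 had the fewest peaks, and against control replicate 1 alone it was 22 of 31 (71%) and 54.0%. No test was made of the excess over other genes, since the genes were chosen with earlier results of these data known.

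With a window of 100 kb the share of these genes was above the background in both si-Uc003xsl.1 lists and below it in both controls. No other window tried, shorter or longer, gave this pattern. With 50 kb, si-Uc003xsl.1 replicate 2 was below the background (25.8% against 31.3%). With 200000 bp, control replicate 2 was slightly above it (12.9% against 12.6%). Within 100 kb, 22 of 31 (71%) and 17 of 31 (54.8%) had a summit in si-Uc003xsl.1 replicates 1 and 2 against 57.3% and 43.8% of other genes. In controls it was 4 of 31 (12.9%) and 1 of 31 (3.23%) against 29.1% and 7.41%. A summit up to 100 kb away can have other genes nearer to it, and how often it did was not counted. These counts therefore describe the neighbourhood and not the genes themselves.

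**Figure D4:**
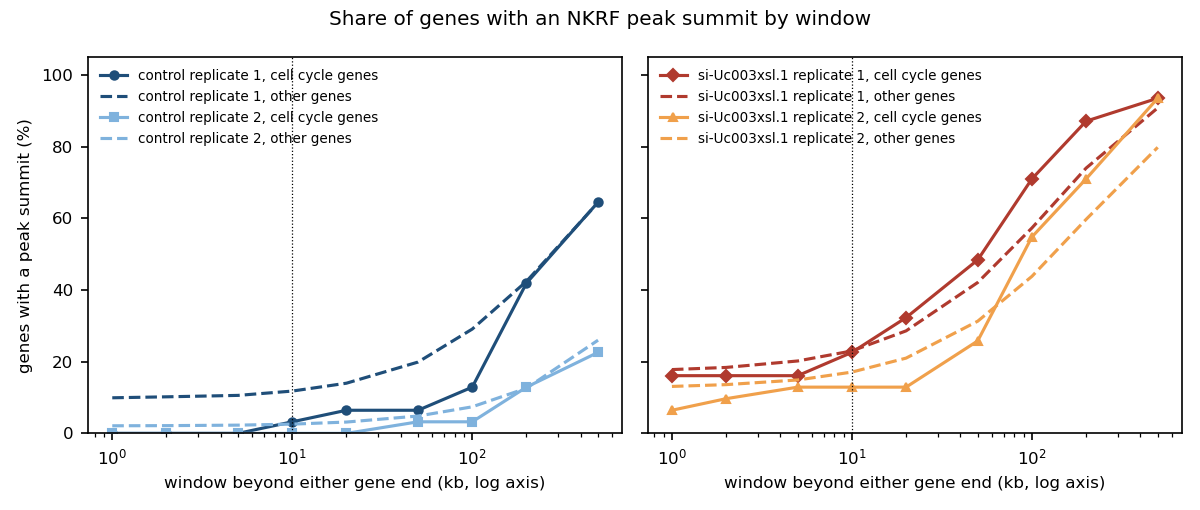
Share in percent of the 31 cell cycle genes (solid, with symbols) and of all other protein-coding genes (dashed) with a summit inside the gene or within the window on the x axis (kb, log axis), by library. At 10 kb (dotted) si-Uc003xsl.1 replicate 1 stands at 22.6% against 23.0%, and at 100 kb the si-Uc003xsl.1 curves lie above their dashed lines.

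Among 104 further cell cycle genes, covering RB and E2F factors, origin licensing, DNA synthesis, checkpoints and mitosis, 9 (8.65%) and 1 (0.962%) had a peak within 10 kb in control replicates 1 and 2, and 18 (17.3%) and 17 (16.3%) in si-Uc003xsl.1 replicates 1 and 2. The shares of other protein-coding genes were 11.8%, 2.58%, 23.0% and 17.1% in the same order. Those of the 104 genes were lower in each library, only slightly so in si-Uc003xsl.1 replicate 2, and no test was made. The highest-ranked peaks in si-Uc003xsl.1 replicate 1 were at WEE1, the kinase gene that restrains CDK1 (82 tags, 110 bp inside a gene end), at PTTG1, the gene of securin (19 tags, 30 bp downstream of the start site), and near MCM8 (48 tags), the last 78 bp from CRLS1. In replicate 2 they were at DBF4, which encodes the activator of the origin-firing kinase CDC7 (11 tags, 447 bp upstream of DBF4 and inside SLC25A40, 314 bp from an end of that gene), at TFDP1, the gene of the E2F partner DP1 (19 tags, 718 bp downstream), and near FZR1 (15 tags). The last lay 5112 bp outside FZR1, inside MFSD12 and TEKTIP1 and 584 bp from an end of TEKTIP1. In control replicate 1 they were inside CDC27 (11 tags) and ORC4 (6 tags) and near SMC4 (8 tags). The SMC4 summit lay 1271 bp outside that gene and inside TRIM59, 721 bp from an end of TRIM59.

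Overlapping peaks of both si-Uc003xsl.1 libraries lay at 2 of these 104 genes (1.92%), RBL2 and LIN9, which were picked out after their values were seen. It was 0 of the 31 genes and 0.935% of the other protein-coding genes, and no test was made of these shares. RBL2 encodes p130, a relative of the retinoblastoma protein that represses E2F targets. Its peaks lay at 53434412 to 53434718 on chromosome 16 in replicate 1 (17 tags) and at 53434397 to 53434809 in replicate 2 (20 tags), with summits 68 and 92 bp downstream of the start site printed above. LIN9 encodes a subunit of the complex that controls mitotic genes together with such proteins. It had peaks of 32 and 17 tags in replicate 1 and 1 of 24 tags in replicate 2, between 391 and 807 bp downstream of its start. RBL1 and ATM also had a peak in both libraries, at places that did not overlap. ATM also had a peak of 6 tags in control replicate 1, while RBL1, RBL2 and LIN9 had none in a control.

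Lists of called peaks show no signal below the caller's threshold. At this depth, NKRF peaks were not detected at the 20 cell cycle genes without one, which does not show that NKRF was absent there.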

How the data were processed

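The submitters' processing notes name Bowtie2, CASAVA 1.4 and the build GRCh38.p11. Each library was called on its own against 1 input, per the file headers. MACS 1.4.2 was used for the si-Uc003xsl.1 libraries and control replicate 1 (p threshold 1e-04, 50-bp tags). Control replicate 2 used MACS 2.1.1.20160309 (q threshold 0.05, 105-bp tags), per the file headers. The deposited values are the tag count, the score -10 log10(p) (divided by 10 here), the fold enrichment as a ratio over input and a false discovery rate in percent. For control replicate 2 the authors deposited the pileup signal and -log10 of the p-value and q-value. No value was rescaled between lists. Tag counts, folds and p-values per peak are the authors' and only describe peaks.

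Distances ran from gene bodies of a RefSeq table (GRCh38.p14; patches keep primary coordinates) to summits, with Python 3.11.15 and pandas 2.3.3, and were tested on simulated peaks. Genes were named when they had a peak, with the 3 nearest misses and the 3 highest-ranked peaks per list of the 104 further genes. For control replicate 2 the last is not reported here. Genes and lists were chosen with earlier results of these data known. Start sites came from RefSeq promoters. Alternatives were windows of 1 and 50 kb, peak overlap in place of summits, the stronger 50% of each list, equal lists, and leaving out each library. The 4 input libraries were not analysed here.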

Additional observations from a re-analysis of the deposited data

How the results depend on the processing

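The number of cell cycle genes with a peak changed with the window, and it fell or stayed the same when a list was shortened. Between the full lists this number did not follow list length. Control replicate 1 had 1 of 31 with 7444 peaks, and si-Uc003xsl.1 replicate 2 had 4 of 31 with 4463 peaks. Listed for both controls and then both si-Uc003xsl.1 libraries, each in replicate order, it was 0, 0, 5 and 2 of 31 with a window of 1 kb, against 9.93%, 2.12%, 17.8% and 13.1% of other genes. With 50 kb it was 2, 1, 15 and 8 (6.45%, 3.23%, 48.4% and 25.8%) against 19.9%, 4.84%, 42.1% and 31.3%, so si-Uc003xsl.1 replicate 1 was above the background there. With the stronger 50% of each list it was 1, 0, 3 and 2 against 6.75%, 1.32%, 13.9% and 8.93%, and with lists of 902 peaks it was 0 in all 4 against 1.99%, 2.58%, 4.36% and 4.03%. The difference of 5 genes between group means became 10 with 50 kb, 2 with the stronger 50% and 0 with equal lists, and it ranged from 3.5 to 6.5 when 1 library was left out. Median distances with the stronger 50% were 631 kb and 3950 kb in control replicates 1 and 2 and 113 kb and 390 kb in the si-Uc003xsl.1 replicates. With equal lists they were 2410 kb in control replicate 1 and 391 kb and 848 kb after si-Uc003xsl.1. Of the 12 peaks, 7 were kept with a window of 1 kb, 6 in the stronger 50% and 12 when any base of the peak counted.

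For the other protein-coding genes the difference between groups stayed positive under each of these settings, from 1.91 points with equal lists to 24.3 with 50 kb, and from 8.29 to 17.5 when 1 library was left out. With same-numbered libraries paired as a replicate block it was 12.9 points (two-sided exact permutation p = 0.5, the smallest possible with 2 pairs). The labels do not say that the numbers pair the libraries. Control replicate 2 has the fewest tags and another caller version, which cannot be told apart from its replicate.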
